A study of Saccharomyces cerevisiae with 2 samples.

Results

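The copper uptake and metallothionein genes, 10 in all, were compared between the rice wine strain YHJ7 and the laboratory strain BY4741 of Saccharomyces cerevisiae. They are the copper transporter genes CTR1, CTR2 and CTR3, the metalloreductase genes FRE1 and FRE7, the regulator genes MAC1 and CUP2, and the metallothionein genes CUP1-1, CUP1-2 and CRS5. The members were found by gene name among 6716 genes, and all 10 were measured in both libraries. They were chosen by name as copper genes with the differences of these same libraries in view, so the differences below are descriptions and none was tested.

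YHJ7 is a haploid strain derived from an isolate of Chinese rice wine fermentation. The sample labels call it wild type and write it as YHJ8 with the title DY1. BY4741 is a laboratory strain of the S288c background, and its labels give it as MATa with his△1, leu2△0, lys2△0 and ura3△0. Both strains were grown in YPD medium from an initial OD600 of 0.05, and polyadenylated RNA was taken at early stationary phase. The labels name no copper treatment in either strain.

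Each strain is represented by 1 library that pools 2 biological replicates, so the spread between cultures was not measured. The YHJ7 library held 8168418 fragments on named genes and the BY4741 library 10218976. The table attached to each sample is headed with the name of the other strain, and the headings were followed. LEU2 had 473 fragments in the library headed YHJ7 and 0 in the library headed BY4741, and URA3 had 768 and 0. LYS2, deleted in BY4741 according to the labels, had 830 fragments in YHJ7 and 1348 in BY4741. RNA of LYS2 was thus present in both libraries, against that label. MET17, which the BY4741 labels do not list as deleted, had 240 fragments in YHJ7 and 0 in BY4741. HIS3 had 715 fragments in YHJ7 and 548 in BY4741. In a culture measured in bulk, fewer cells expressing a gene and less RNA per cell cannot be told apart. Reads of both libraries were mapped to the sequence of S288c, the background of BY4741, and YHJ7 differs from it in sequence. Reads of YHJ7 lost for that reason would lower its values, and this was not tested.

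Copper enters yeast as the reduced ion. Cell surface reductases such as Fre1 and Fre7 reduce it, the high-affinity transporters Ctr1 and Ctr3 carry it across the plasma membrane, and Ctr2 releases it from the vacuole. Mac1 is a transcription factor that senses copper. Cup2, also called Ace1, is the factor that activates the metallothionein genes when copper is abundant. Metallothioneins are small cysteine-rich proteins that bind copper and keep it from harming the cell. Many laboratory strains carry a Ty2 transposon in the CTR3 promoter, and the number of CUP1 copies is known to vary between yeast strains.

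The stretch before CTR3 is shown first, because CTR3 had the largest difference of the members. In the S288c reference (RefSeq, R64, the sacCer3 sequence) a Ty2 element of 5959 bases lies at chrXII:941192-947150, between the neighbouring gene VIP1 and CTR3. It starts 210 bases after VIP1 and ends 102 bases before the CTR3 start codon. Capitals mark the Mac1 element TTTGCTC or its reverse complement GAGCAAA, searched on both strands. The first stretch is chrXII:941054-941191 and the second is chrXII:947151-947252, both on the plus strand.
CTR3 before Ty2: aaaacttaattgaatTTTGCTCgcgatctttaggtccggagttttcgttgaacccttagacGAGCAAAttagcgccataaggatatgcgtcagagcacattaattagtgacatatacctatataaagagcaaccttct
CTR3 after Ty2: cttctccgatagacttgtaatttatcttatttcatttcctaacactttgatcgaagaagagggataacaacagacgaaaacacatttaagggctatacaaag
Both Mac1 matches lie before the Ty2 element, 6184 and 6138 bases from the start codon. They would lie 225 and 179 bases from it if the Ty2 element were taken out. The letters TATATAAA occur once before the element, 20 bases from its edge, and 0 times after it. The 5 bases CTTCT stand at both edges of the element. Of 6002 genes of the reference, 5 (0.0833%) have a Ty element within 150 bases before the start codon. Whether YHJ7 carries the element here was not tested, since the files hold expression values and no YHJ7 sequence.

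**Figure D1:**
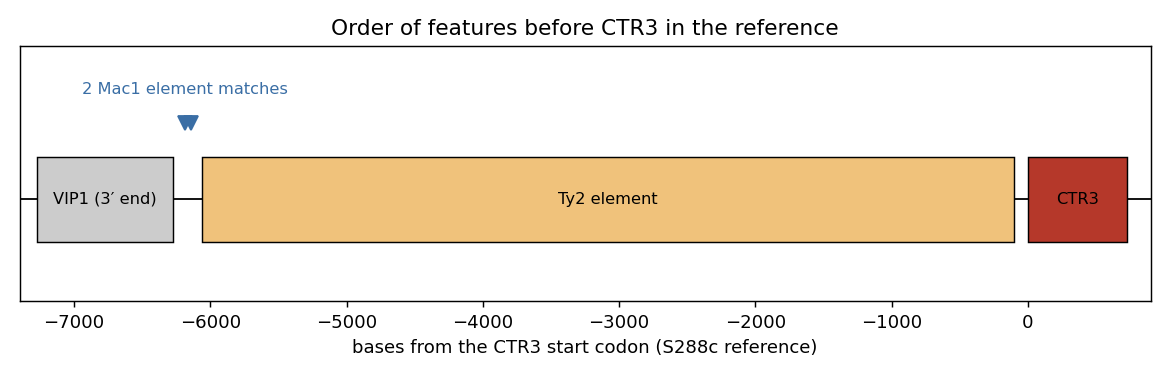
Features before CTR3 in the S288c reference, drawn to scale against the distance in bases from the CTR3 start codon. The Ty2 element of 5959 bases separates CTR3 from the 2 Mac1 element matches (triangles, 6184 and 6138 bases from the start codon), and the VIP1 box shows only the end of that gene.

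The promoters of CTR1 and FRE1 are shown as uptake genes whose Mac1 elements lie near the gene in the reference. Capitals again mark TTTGCTC or GAGCAAA. The CTR1 stretch is chrXVI:785859-785918 and the FRE1 stretch is chrXII:568266-568492, both on the plus strand.
CTR1 promoter: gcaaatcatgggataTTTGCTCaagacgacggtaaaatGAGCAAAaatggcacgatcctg
FRE1 promoter: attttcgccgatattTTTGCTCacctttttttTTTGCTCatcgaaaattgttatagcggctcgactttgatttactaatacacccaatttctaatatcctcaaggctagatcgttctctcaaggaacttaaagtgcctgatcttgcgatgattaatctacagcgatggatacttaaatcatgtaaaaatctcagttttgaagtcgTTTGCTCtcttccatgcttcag
CTR1 held 2 matches within 500 bases before its start codon, at 334 and 311 bases. FRE1 held 3, at 286, 269 and 96 bases. CTR3, FRE7 and the other 6 members held 0 in that window. A match was found in 517 of 6000 upstream windows of this length (8.62%), and 2 or more in 21 (0.35%). A match describes letters only and is not a measured binding site.

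The CUP1-1 promoter and reading frame are shown because they carry the elements and cysteine codons of the main metallothionein. The promoter stretch is chrVIII:212881-213052 and the reading frame is chrVIII:212535-212720, both on the minus strand. Capitals mark the Ace1 metal response element in the promoter and cysteine codons in the reading frames. The CRS5 frame is chrXV:389213-389422 on the plus strand.
CUP1-1 promoter: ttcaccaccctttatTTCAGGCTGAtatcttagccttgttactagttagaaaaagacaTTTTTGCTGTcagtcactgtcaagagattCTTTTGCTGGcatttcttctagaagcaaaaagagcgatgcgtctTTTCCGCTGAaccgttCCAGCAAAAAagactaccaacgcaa
CUP1-1 coding: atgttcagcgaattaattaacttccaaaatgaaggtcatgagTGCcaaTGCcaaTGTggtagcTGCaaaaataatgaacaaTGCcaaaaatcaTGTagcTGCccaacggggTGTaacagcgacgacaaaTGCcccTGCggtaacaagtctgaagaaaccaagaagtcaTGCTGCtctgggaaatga
CRS5 coding: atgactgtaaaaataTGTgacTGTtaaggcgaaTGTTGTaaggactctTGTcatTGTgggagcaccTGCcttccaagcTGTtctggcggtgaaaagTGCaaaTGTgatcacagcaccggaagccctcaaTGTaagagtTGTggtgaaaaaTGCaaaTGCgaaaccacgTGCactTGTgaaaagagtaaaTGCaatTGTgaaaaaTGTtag
CUP1-1 and CUP1-2 each held 5 element matches within 500 bases, at 317, 274, 245, 201 and 185 bases from the start codon. CTR2 held 2 matches, and CUP2 and CRS5 held 1 each. No matches of the elements overlapped. Of 6000 windows, 1821 (30.4%) held at least 1 match and 6 (0.1%) held 5 or more. The CUP1 frame has 62 codons, of which 12 encode cysteine. The CRS5 frame has 70 codons with 19 cysteine codons, but in the reference its codon 9 is a stop, after 2 of those cysteine codons, and RefSeq annotates CRS5 as a pseudogene.

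The members split evenly in direction. CTR1, CTR2, CTR3, FRE1 and MAC1 were higher in YHJ7, and FRE7, CUP1-1, CUP1-2, CUP2 and CRS5 were lower. The differences are log2(FPKM + 1) of YHJ7 minus BY4741, where FPKM is the number of fragments per kilobase of transcript, scaled to the size of the library. A pseudocount of 1 understates differences of low genes. Over the 10 members the median difference was 0.19, against 0.0 over all 6716 genes. CTR3 and FRE1 were at least 4-fold higher in YHJ7, 2 of 10 members, and 2.74% of all genes were that much higher. CUP1-1 and CUP1-2 were at least 4-fold lower in YHJ7, 2 of 10 members with the same reading frame sequence, and 3.75% of all genes were that much lower. Over all genes this was 184 higher and 252 lower, or 107 higher and 308 lower after the libraries were given the same total of counts. Because the members were selected on this contrast, these shares are not evidence about copper genes.

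**Figure D2:**
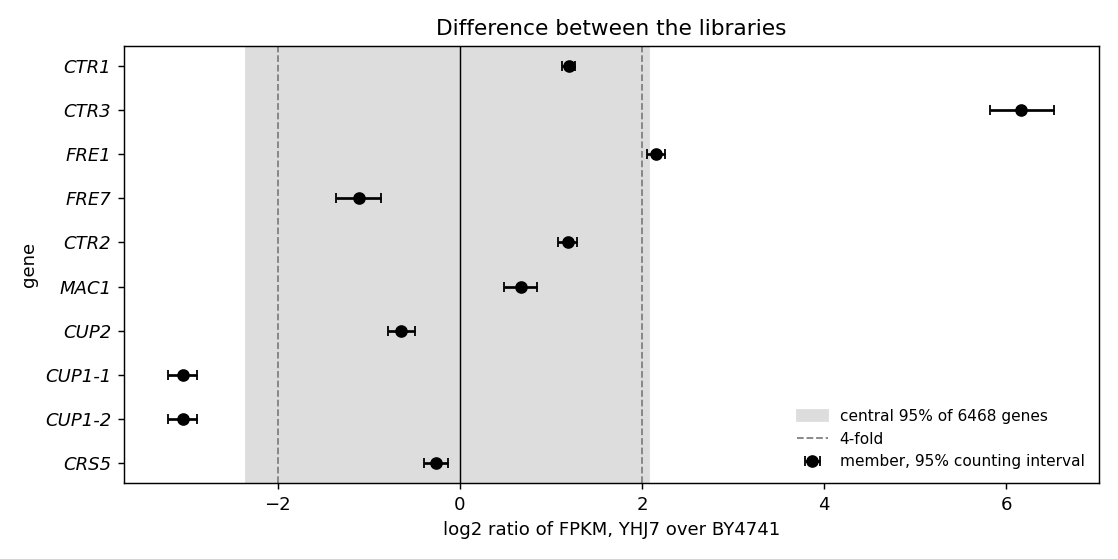
Log2 ratio of FPKM, YHJ7 over BY4741, for each member (points) with its 95% counting interval (bars), 1 library per strain. The grey band runs from -2.35 to 2.08 and holds the central 95% of the 6468 genes above 0 in both libraries, and CTR3, FRE1 and both CUP1 copies lie outside it.

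CTR3, the second high-affinity copper transporter, lies at chrXII:947253-947978 on the plus strand (YLR411W). It had 725 FPKM in YHJ7 (3137 fragments) and 10.1 FPKM in BY4741 (69 fragments). Its fragments in BY4741 were few, and it had rank 10 from the highest difference of 6716 genes. The ratio was 71.5-fold, with a 95% counting interval of 56.3 to 92.1. The counting intervals given here are exact, rest on the fragment numbers alone and leave out the variation between cultures. The log2 ratio was 6.16 (counting standard error 0.176), and the log2(FPKM + 1) difference was 6.03.

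The genes beside CTR3 did not share its difference. VIP1, which encodes an inositol pyrophosphate kinase, had 42.1 FPKM in YHJ7 and 40.4 in BY4741. BER1, on the other side, had 36.4 FPKM in YHJ7 and 39.8 in BY4741. Both counting intervals of the ratio include 1, at 0.966 to 1.12 for VIP1 and 0.758 to 1.10 for BER1. The reading frames inside the Ty2 element belong to a repeated family, so their fragments cannot be placed at this locus. YLR410W-A had 30.4 FPKM in YHJ7 and 9.83 in BY4741, and YLR410W-B had 3.63 in YHJ7 and 10.4 in BY4741. YLR410W-A lies inside YLR410W-B, so these values also depend on how shared reads were divided. They are not a measure of the element beside CTR3.

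CTR1, the main high-affinity copper transporter, lies at chrXVI:786208-787428 on the plus strand (YPR124W). It had 458 FPKM in YHJ7 and 200.0 in BY4741, from 3847 and 2644 fragments. It was 2.29-fold higher in YHJ7 (95% counting interval 2.18 to 2.40). The dubious reading frame YPR123C overlaps CTR1 and had 523 FPKM in YHJ7 and 238 in BY4741, a ratio of 2.20. The library strand is not stated in the sources used here, so reads of overlapping genes cannot be told apart.

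The balance between the 2 plasma membrane transporters differed between the libraries. Levels of different genes were compared as deposited counts per kilobase of reading frame, because the FPKM of short genes rests on a shortened effective length. CTR3 made up 57.8% of the CTR1 and CTR3 counts per kilobase in YHJ7 and 4.20% in BY4741. In YHJ7 the CTR3 level was 1.37 times that of CTR1, whereas in BY4741 the CTR1 level was 22.8 times that of CTR3. The CTR1 counts leave out reads given to the overlapping YPR123C, which had 1008 fragments in YHJ7 and 720 in BY4741. The share and the 1.37 would be lower if those reads belong to CTR1. Summed over both genes, FPKM was 1183 in YHJ7 and 210 in BY4741, a ratio of 5.63.

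FRE1, which encodes the main cell surface reductase for copper and iron, lies at chrXII:568567-570627 on the plus strand (YLR214W). It had 213 FPKM in YHJ7 (3265 fragments) and 47.9 in BY4741 (1156 fragments). The ratio was 4.44-fold, with a counting interval of 4.15 to 4.75, and the gene ranked 147 from the highest difference. FRE1 stood just past the 4-fold mark, at a log2(FPKM + 1) difference of 2.13. It fell short of the mark, at 1.80, after the total of counts was made equal in the libraries.

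FRE7, a further reductase gene, went the other way. It lies at chrXV:40748-42610 on the plus strand (YOL152W) and had 13.0 FPKM in YHJ7 and 28.0 in BY4741, from 178 and 604 fragments. It was 2.16-fold lower in YHJ7 (counting interval 1.82 to 2.57). FRE7 thus differed in direction from CTR1, CTR3 and FRE1. Summed FPKM of these 4 uptake genes was 1409 in YHJ7 and 286 in BY4741, a ratio of 4.92. CTR3 carried much of this sum. Without CTR3 it was 683 in YHJ7 and 276 in BY4741, a ratio of 2.48. Over all 4 genes the ratio of summed counts, which gives long genes more weight, was 3.67.

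CTR2, the vacuolar copper transporter, lies at chrVIII:452872-453441 on the plus strand (YHR175W). It had 576 FPKM in YHJ7 and 254 in BY4741, from 1752 and 1213 fragments. The 2.27-fold higher level in YHJ7 (counting interval 2.11 to 2.45) was close to that of CTR1.

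The 2 copper-sensing regulators differed in opposite directions. MAC1 lies at chrXIII:317165-318418 on the minus strand (YMR021C) and had 60.5 FPKM in YHJ7 and 38.1 in BY4741, which is 1.59-fold higher in YHJ7 (counting interval 1.40 to 1.80). CUP2 lies at chrVII:191129-191806 on the plus strand (YGL166W) and had 138 FPKM in YHJ7 and 216 in BY4741, which is 1.56-fold lower in YHJ7 (counting interval 1.41 to 1.73). CUP2 was the more abundant regulator in both libraries. Per kilobase, its counts were 1.92 times those of MAC1 in YHJ7 and 4.75 times in BY4741. YGL165C, a reading frame that overlaps CUP2, had 37.7 FPKM in YHJ7 and 67.9 in BY4741. Both regulator differences lay inside the central 95% of genes.

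CUP1-1 (YHR053C, chrVIII:212535-212720) and CUP1-2 (YHR055C, chrVIII:214533-214718) encode the main copper metallothionein and lie on the minus strand. Each had 1837 FPKM in YHJ7 and 15156 FPKM in BY4741. The copies have identical values because their frames differ at 0 bases, so they count as 1 measurement. Together they held 714 fragments in YHJ7 and 9265 in BY4741, and were 8.25-fold lower in YHJ7 (counting interval 7.65 to 8.92). Reads of CUP1 and of the overlapping frames YHR052W-A and YHR054W-A, which were 32.4-fold lower, cannot be told apart. The 8.25-fold ratio depends on how they were divided, which its interval leaves out. The log2(FPKM + 1) difference was -3.04, number 118 from the lowest.

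Other reading frames of the CUP1 repeat were lower in YHJ7 as well, but not all of them are separate measurements. The reference holds 2 repeats with a unit of 1998 bases and an identical stretch of 1988 bases. YHR054C, which lies wholly inside that stretch, had 4.70 FPKM in YHJ7 (33 fragments) and 57.7 in BY4741 (646 fragments), 12.3-fold lower in YHJ7 (counting interval 8.77 to 18.2). YHR052W-A and YHR054W-A overlap the CUP1 frames, so they share reads with them. They had 356 FPKM each in YHJ7 and 11534 each in BY4741, 32.4-fold lower in YHJ7. RSC30, with 40.3% of its frame inside the repeat, had 15.1 FPKM in YHJ7 and 38.1 in BY4741, 2.53-fold lower in YHJ7. The part of RSC30 inside the repeat holds the sequence of YHR054C, so RSC30 and YHR054C share reads too.

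The genes just outside the repeats were not at least 4-fold lower in YHJ7. CIC1 had 103 FPKM in YHJ7 and 30.0 in BY4741, 3.43-fold higher in YHJ7. CPR2, a cyclophilin gene, had 251 FPKM in YHJ7 and 330 in BY4741, 1.32-fold lower in YHJ7. CIC1, CPR2 and the overlapping frames were picked after their values were seen. Fewer CUP1 copies in the genome and less RNA per copy cannot be told apart in these data, since reads from any number of copies map to the same 2 reference copies. Loss of YHJ7 reads that differ from the reference sequence was not tested here either.

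**Figure D3:**
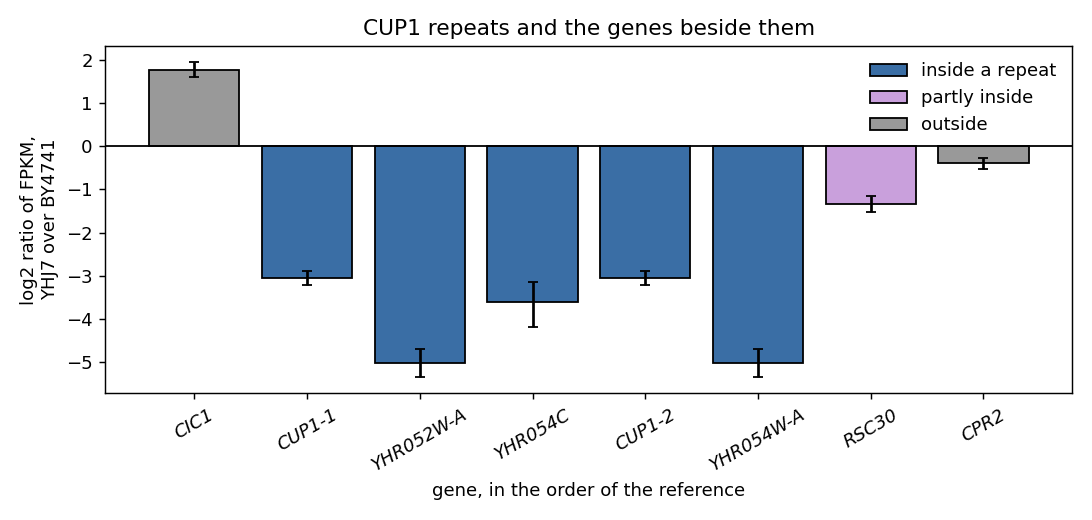
Log2 ratio of FPKM, YHJ7 over BY4741, for genes in and around the CUP1 repeats (bars, with 95% counting intervals), 1 library per strain, in reference order. Genes inside the repeat lie between -5.02 and -3.04, RSC30, partly inside, lies at -1.34, and the outside genes CIC1 and CPR2 lie at 1.78 and -0.40. Frames that overlap or repeat each other share reads and are not separate measurements.

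CRS5, the second metallothionein gene, lies at chrXV:389213-389422 on the plus strand (YOR031W). It had 2515 FPKM in YHJ7 and 3019 in BY4741, from 732 and 1382 fragments. The 1.20-fold lower level in YHJ7 (counting interval 1.10 to 1.32) was the smallest difference of the members. It did not follow the CUP1 copies. RNA of CRS5 was thus plentiful in both libraries, although the S288c frame is interrupted.

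The order of the members within a library was read from counts per kilobase. In YHJ7 CTR3 was highest with 5413, followed by CRS5 with 4366, CTR1 with 3947 and CTR2 with 3850. CUP1-1 and CUP1-2 had 2405 each, FRE1 had 1984, CUP2 had 1004, MAC1 had 524 and FRE7 was lowest with 120. The intervals of CRS5 and CTR1 overlapped, as did those of CTR1 and CTR2, so the order within these pairs was not resolved. In BY4741 the CUP1 copies were highest with 19840 each, followed by CRS5 with 5243, CTR1 with 1725, CTR2 with 1695 and CUP2 with 1569. FRE1 had 447, MAC1 had 330, FRE7 had 258 and CTR3 was lowest with 75.7. The intervals of CTR1 and CTR2, and of CTR2 and CUP2, overlapped there. CTR3 thus stood at the top of this order in YHJ7 and at the bottom in BY4741. The top place depends on the measure. By deposited FPKM in YHJ7, CRS5 (2515) and each CUP1 copy (1837) stood above CTR3 (725). Each CUP1 value is a share of the reads of 2 identical frames. In YHJ7 the CUP1 copies together held 714 fragments, and the overlapping YHR052W-A and YHR054W-A held 162 together. The places of CUP1 and CTR3 in YHJ7 depend on how these reads were divided. Reads of CTR1 and the overlapping YPR123C cannot be told apart either.

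**Figure D4:**
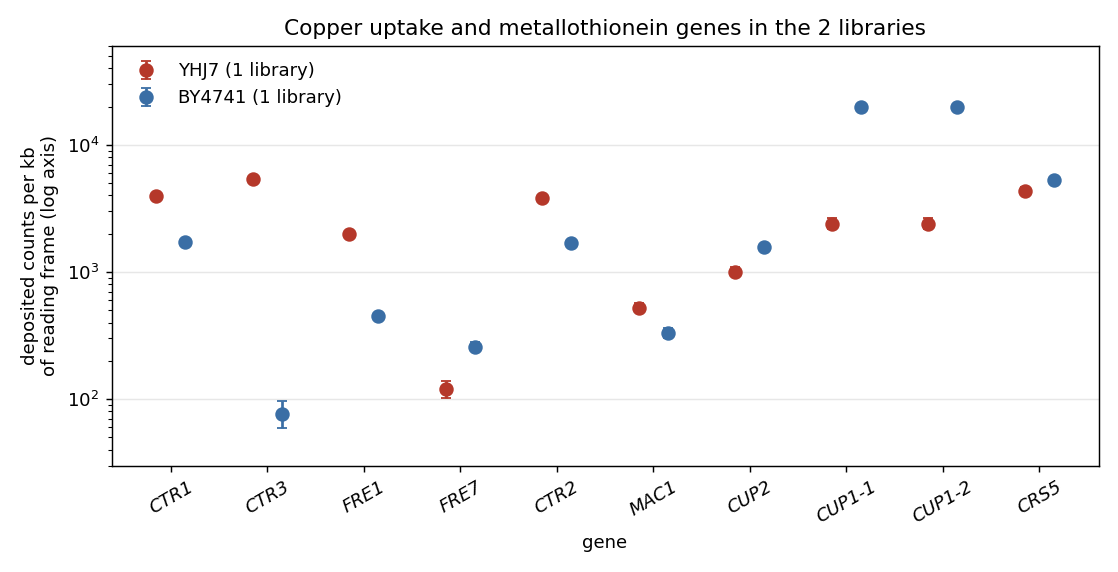
Deposited counts per kilobase of reading frame (log axis) of the 10 members in YHJ7 (left point of each pair) and BY4741 (right point), with 95% exact Poisson intervals, which are often smaller than the point, 1 library per strain. CTR3 is the highest member in YHJ7 (5413) and the lowest in BY4741 (75.7), and the CUP1 copies are highest in BY4741 (19840). Each CUP1 point is a share of reads from identical and overlapping frames. The top place of CTR3 in YHJ7 depends on that division and on the measure, since CRS5 and the CUP1 copies have a higher FPKM there.

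The genes whose ratio was nearest to that of CTR3 were sought among 5559 genes that had more than 3 fragments in both libraries and an FPKM averaging 10 or more. With 2 libraries, likeness is the distance between log2 ratios only. SUC2, the secreted invertase gene, came first with 3162 FPKM in YHJ7 and 54.7 in BY4741. It was followed by HXT2, BIO5, SNO1 and HPF1, with log2 ratios of 6.57, 6.85, 5.28 and 5.03. None of these 5 genes stands on the lists of copper genes used here.

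Other genes listed for copper handling were mostly higher in YHJ7 on the deposited scale, by small amounts. The lists hold further metalloreductases, copper chaperones and organelle copper transporters, copper enzymes and low-affinity metal transporters. They also hold REE1 and IRC7, which were listed as targets of Mac1 and not for a role in handling copper. Of 26 genes, 20 had a positive difference and 6 a negative one, with a median of 0.64, against 0.0 over all genes. Of all 6716 genes, 3329 had a positive difference. With the same total of counts in both libraries, 16 were positive and 10 negative, since FRE4, FRE8, COX11 and COX23 turned. That scaling lowers every YHJ7 value. It took the median of the 26 genes to 0.31, and the median log2 ratio of all genes from 0.0144 to -0.315. FET3 was at least 4-fold higher in YHJ7, 1 of 26 beside 2.74% of all genes. REE1 and FET4 were at least 4-fold lower, 2 of 26 beside 3.75% of all genes. These counts lie near the shares over all genes. FET3, the multicopper oxidase of high-affinity iron uptake, had 659 FPKM in YHJ7 and 143 in BY4741, a 4.62-fold higher level in YHJ7. Its log2(FPKM + 1) difference was 2.20, and 1.87 with the same total of counts, short of the 4-fold mark. REE1, whose protein is tied to the regulation of enolase, had 3 fragments in YHJ7 and 4556 in BY4741, a 966-fold lower FPKM in YHJ7, with a counting interval of 330 to 4685. The study lists the region of REE1 as deleted in YHJ7, so this value is not a measure of how an intact gene was expressed. IRC7, which encodes a cysteine-sulfur lyase, had 14.8 FPKM in YHJ7 and 6.06 in BY4741, 2.44-fold higher in YHJ7. FET4, a low-affinity iron and copper transporter, had 8.82 FPKM in YHJ7 and 42.1 in BY4741, 4.77-fold lower in YHJ7 (counting interval 3.89 to 5.90).

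The other metalloreductase genes differed less than FRE1. Of 7, 6 had a positive difference, beside 3329 of all 6716 genes, or 4 with the same total of counts. The range was -0.15 to 1.27. FRE6, a vacuolar reductase gene, was at the top with 82.7 FPKM in YHJ7 and 33.7 in BY4741. FRE2, an iron-regulated reductase gene, was at the bottom with 3.10 FPKM in YHJ7 and 3.55 in BY4741, and the counting interval of its ratio, 0.598 to 1.24, includes 1.

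Copper delivery genes had differences from -0.27 to 1.26, with 9 of 11 positive, beside 3329 of all 6716 genes. With the same total of counts 7 of the 11 were positive. CCC2, the pump that loads copper into the secretory pathway, had 42.8 FPKM in YHJ7 and 17.3 in BY4741. ATX1, the chaperone that hands copper to Ccc2, had 723 FPKM in YHJ7 and 307 in BY4741. Both thus lay near the ratio of CTR1. CCS1, the chaperone of the copper superoxide dismutase, had 149 FPKM in YHJ7 and 181 in BY4741. SOD1, that dismutase, had 5720 FPKM in YHJ7 and 8725 in BY4741, 1.53-fold lower in YHJ7. CCS1 and SCO1 were the 2 delivery genes with a negative difference, at -0.27 and -0.13. The counting interval of the SCO1 ratio, 0.802 to 1.04, includes 1.

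**Figure D5:**
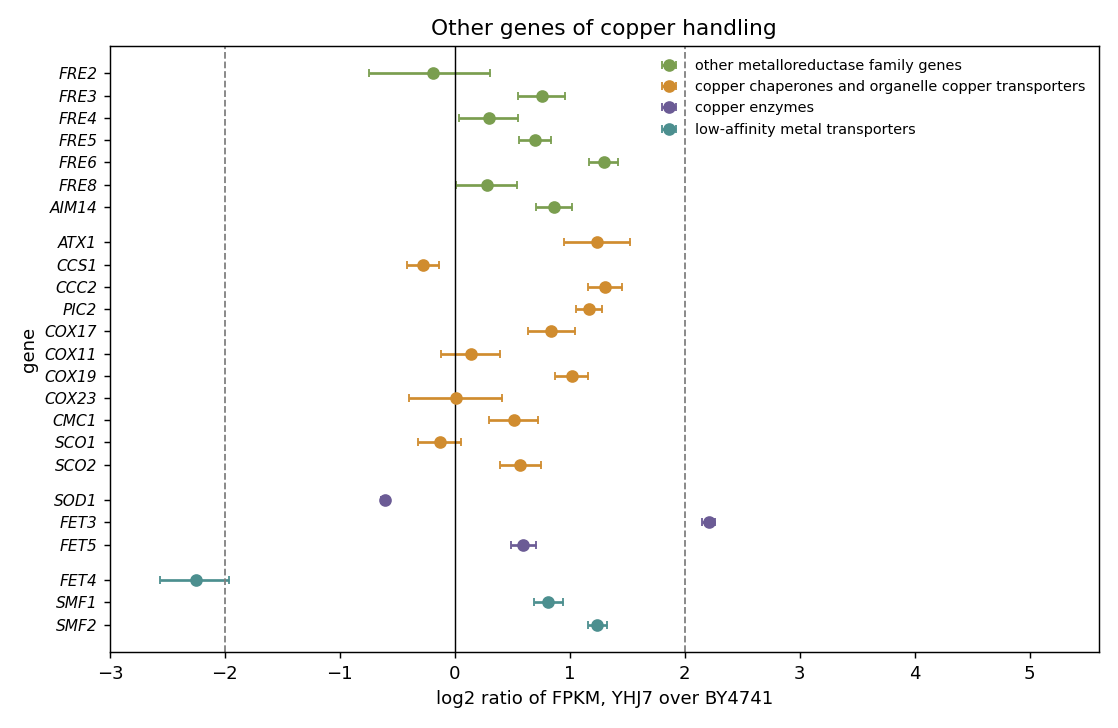
Log2 ratio of FPKM, YHJ7 over BY4741, for 24 other copper and metal handling genes in 4 lists (points, with 95% counting intervals), 1 library per strain. FET3 lies above the upper 4-fold line (dashed) and FET4 below the lower one, and the other 22 lie between the lines.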

How the data were processed

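Messenger RNA of YHJ7 and of BY4741 was sequenced as 1 library per strain, and 2 biological replicates were pooled in each. The authors filtered and trimmed the reads, mapped them to sacCer3 with TopHat2 2.0.4 and quantified genes with Cufflinks 2.0.2. They deposited estimated counts, which are fragments divided by a factor for each library, and FPKM values. They also deposited a table of comparisons with FPKM, fold changes, p-values and q-values, of which only FPKM was used, as an alternative. Strains followed the column headings.

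The worth of 1 fragment was 1.25 deposited counts in YHJ7 and 0.797 in BY4741, the largest step that fitted counts up to 40 nearly as well as the best one. Within 0.05, 80.3% of the YHJ7 counts above 0 and 80.2% of those of BY4741 were whole multiples. Among counts up to 40, 51.1% and 49.6% were whole within 0.02, so a count model was not used. A row without a gene name, with 0.309% of the YHJ7 counts and 0.806% of the BY4741 counts, was dropped. The floor of 3 fragments was 3.76 counts in YHJ7 and 2.39 in BY4741. Ratios have exact 95% intervals from fragment numbers, covering counting error only. No test was run, because each strain has 1 library.

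The members and lists were chosen with earlier results of these data known. The rule for named genes took all members, the genes of the lists and the 5 genes nearest to CTR3 by log2 ratio, and list genes without a value in the text are given by counts and ranges. Sequences and positions came from RefSeq R64, where all 10 members matched, and 500 bases before each start codon were searched. No protein sequence was used here, and 1 grouping of the genes is not reported here. Alternatives covered scaling, pseudocount, threshold, filter, the table of comparisons and the fragment step. Python 3.11.15, NumPy 2.4.6, pandas 2.3.3, SciPy 1.17.1 and matplotlib 3.10.9 were used.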

Additional observations from a re-analysis of the deposited data

How the results depend on the processing

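The number of members higher in YHJ7 stayed at 5 of 10 under both scalings, both other pseudocounts and the estimated counts. No member changed direction, but this was largely fixed in advance. A pseudocount cannot change a direction, and the estimated counts give a member nearly the same ratio as FPKM. Both scalings only lowered YHJ7, so they could have turned only the 5 members that were higher. The 2 members at least 4-fold higher became 1 (CTR3 without FRE1) with the same total of counts, with the same total of FPKM, a scaling chosen after seeing the data, and with a pseudocount of 10. The threshold moved this count to 4 at 2-fold and 1 at 16-fold. The 2 members at least 4-fold lower became 0 at 16-fold, and 1 when the CUP1 copies were counted as 1 gene, also chosen after seeing the data. In the deposited table of comparisons, 3 members with the same locus had FPKM above 0, and the counts were 1 higher (CTR3) and 0 lower, with both CUP1 copies listed at 0 in both strains. Of 53 differences of single members under an alternative, 20 moved by more than counting error, 17 of them under scaling, and 0 reversed. Many of the 53 could not reverse, for the reasons given above. Scaling to the same total of counts moved the median log2 ratio of all genes by -0.33, and scaling to the same total of FPKM by -0.21. All genes at least 4-fold higher and lower in YHJ7 numbered 122 and 285 with the same total of FPKM. With the other worth of a fragment, the step of the highest share, the counting standard errors of the members ran from 0.0230 to 0.123 on the log2 scale, against 0.0364 to 0.176 with the step used, and those of 9 members (not CTR3) were over 1.5 times smaller, so the printed intervals are the wider ones. The direction counts of the other copper genes under scaling were added after seeing the data, as was the sum without CTR3. No paired analysis was possible because there is only 1 library per strain. The depth limits CTR3 in BY4741 most, at 69 fragments.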
